A study of Schizosaccharomyces pombe with 8 samples.

Results

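The mating and pheromone signalling genes described here are 10 genes of the fission yeast Schizosaccharomyces pombe, followed through heat shock and recovery. They were chosen by gene symbol, with no threshold on a measured value but with earlier results of these data known. They comprise mfm1, mfm2, mfm3, gnr1, gpa1, ste6, byr2, byr1, spk1 and ste11. All 10 were annotated on the array, with 12 of the 2914 probe sets that name 1 S. pombe gene, and they make up 10 of the 2896 S. pombe genes with such a probe set. The study hybridised RNA of an opi10- strain and an opi10+ strain to Affymetrix yeast arrays, 8 arrays in all and 1 for each strain and condition. Both strains were grown to mid-log phase in liquid Edinburgh Minimal Medium, a defined medium, at 30C. Samples came from unheated cultures, from the end of 1 h at 43C, and from 2 recovery points at 30C (1 h and 3 h). The opi10 gene is the fission yeast relative of Hikeshi, a human carrier that brings Hsp70 chaperones into the nucleus under heat stress. The labels do not give the mating type of either strain or the way opi10 was lost, and no probe set was annotated to opi10, so its own transcript was not analysed here. Nothing in the labels says that arrays came from separate cultures beyond strain and condition. The 2 strains served as the replicates of a condition, so p-values measure only how far the responses of these strains differed on these arrays.

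Fission yeast cells of the mating types P and M exchange peptide pheromones when nutrients run short. Each pheromone binds a receptor on the other cell type, which acts through the G protein alpha subunit Gpa1 and, with Ras1, on a kinase chain of Byr2, Byr1 and Spk1. Ste11, a transcription factor of the HMG-box family, switches on many genes of mating and early meiosis, and cyclic AMP signalling holds it in check while cells are well fed. The 3 mfm genes each encode a precursor of M-factor, the lipid-modified pheromone of M cells.

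Values are quantile-normalized signals, that is, deposited intensities after the arrays had been given a common distribution over the S. pombe probe sets. Array medians over those probe sets on the deposited scale were 517 in opi10- and 492 in opi10+ cells at 43C, and between 922 and 1096 on the other 6 arrays. On the deposited scale the median change of all genes at 43C against before heat was therefore -0.91 (log2), and -0.07 after normalization, so a normalized change at 43C is relative to this common shift. Changes are log2(signal + 16) differences with their SE, averaged over both strains (2 arrays against 2), and they understate the changes of dim genes. A change was called when limma's adjusted p (Benjamini-Hochberg over 2892 genes) was under 0.05. Arrays measure bulk RNA, in which fewer cells of a type and less RNA per cell cannot be told apart. The 95th percentile of the 2601 probe sets for the budding yeast Saccharomyces cerevisiae served as background and lay between 13 and 17 on the 8 arrays. Of the 12 probe sets of the mating genes, 10 were above it on every array. Both mfm1 probe sets were above it on 2 arrays each, those of 3 h recovery.

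The pheromone precursor genes did not move as 1 group. The probe set used for mfm1 (SPAPB8E5.05) had signals of 3.47, 8.46, 6.98 and 40.6 in unheated opi10- cells, at 43C and at the 1 h and 3 h points, and 15.7, 6.25, 14.1 and 31.1 in opi10+ cells. Both 3 h arrays were above all 6 others, none of which was above background. Signal at 3 h rose by 1.06 ± 0.23 against before heat (adjusted p = 0.0133) and by 0.97 ± 0.23 against 1 h (adjusted p = 0.0150). Since the earlier arrays give only a bound, the increase averaged over both strains, on signal + 16, is stated as at least 1.52-fold over before heat. Over 1 h it is at least 1.72-fold (log2 bounds, 0.60 and 0.78). These bounds do not hold for each strain, since the log2 responses were 1.54 and 1.30 in opi10- but 0.57 and 0.64 in opi10+ cells. The second mfm1 probe set also had its highest signals at 3 h, 20.6 in opi10- and 15.7 in opi10+ cells. Its bounds over before heat and over 1 h were 1.00-fold and 1.14-fold, so it sets no minimum increase over before heat. The call against before heat was lost without the unheated opi10- array (change of 0.70) or the opi10- array at 3 h (0.76). The call against 1 h was lost without any of 3 single arrays, with changes of 0.67 to 1.09. It was also lost with a pseudocount of 1 (1.74 ± 0.58, adjusted p = 0.0521).

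The mfm2 gene (SPAC513.03) was lower at 43C and at 1 h, and higher at 3 h than at 1 h. Its signals were 94.8, 40.2, 27.9 and 137 in opi10- cells and 85.3, 51.1, 26.9 and 74.1 in opi10+ cells, so the lowest values of both strains were at 1 h. Signal fell by 1.29 ± 0.22 at 1 h against before heat (adjusted p = 0.00396) and rose by 1.44 ± 0.22 at 3 h against 1 h (adjusted p = 0.00317). Both of these calls were kept under all 16 alternative settings. The fall at 43C was -0.79 ± 0.22 (adjusted p = 0.0161), or -1.28 on the deposited scale, and it was not called without either array before heat, without the opi10- array at 43C or with arrays centred on their medians (adjusted p of 0.0511 to 0.199). At 3 h the change against before heat was 0.15 ± 0.22 (adjusted p = 0.619), and on the deposited scale it was 0.73 and called (adjusted p = 0.0453).

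The mfm3 gene (SPBPJ4664.03) followed another course. Signals were 70.7, 56.7, 96.3 and 46.8 in opi10- cells and 111, 158, 125 and 41.4 in opi10+ cells, and in each strain the 3 h array was the lowest. Signal fell by 1.07 ± 0.29 at 3 h against 1 h (adjusted p = 0.0232), a call lost without either 1 h array or the opi10+ array at 3 h (adjusted p of 0.0954 to 0.142). Against before heat the 3 h change was -0.81 ± 0.29 (adjusted p = 0.0647). It ranged from -1.18 to -0.38 over the 16 alternatives, 5 of which called it lower, namely median centring (adjusted p = 0.0266), the mean of both probe sets (0.0280), and the omission of the opi10+ or the opi10- array at 43C (0.0154 and 0.0156) or of the opi10- array at 3 h (0.0422). At 43C the strains went apart on the probe set used, with a mean change of 0.10 ± 0.29 (adjusted p = 0.768). On the deposited scale the change was -0.73 and called. The second mfm3 probe set also had its lowest signals at 3 h, 34.2 in opi10- and 45.0 in opi10+ cells. At 43C its signals were slightly above those before heat in both strains, 59.9 against 52.4 in opi10- and 109 against 96.3 in opi10+ cells. The mfm genes are similar in sequence, and cross-hybridisation between their probe sets was not tested.

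Of the G protein genes, gpa1 had the more even response across strains. Gpa1 (SPBC24C6.06) is the G protein alpha subunit that both pheromone receptors act through. Its signals were 1008, 445, 759 and 1348 in opi10- cells and 892, 456, 816 and 1416 in opi10+ cells, and in each strain the order was 43C lowest, then 1 h, then before heat, then 3 h. Signal fell by 1.05 ± 0.10 at 43C against before heat (adjusted p = 1.2e-04), a change of -2.19 on the deposited scale, then rose by 0.78 ± 0.10 between 43C and 1 h (adjusted p = 6.0e-04) and by 0.80 ± 0.10 between 1 h and 3 h (adjusted p = 0.00153). At 3 h it was 0.53 ± 0.10 above its level before heat (adjusted p = 0.00706). These 4 calls held under all 16 alternatives.

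The gnr1 gene (SPCC1020.09) encodes a G beta-like protein known as a negative regulator of pheromone signalling. Its signals were 205, 110, 109 and 104 in opi10- cells and 378, 317, 105 and 83.0 in opi10+ cells. All 4 recovery arrays were below both arrays before heat. Signal fell by 1.27 ± 0.38 at 1 h (adjusted p = 0.0312) and by 1.44 ± 0.38 at 3 h (adjusted p = 0.0254), both against before heat. At 43C the change was -0.53 ± 0.38 (adjusted p = 0.248), with -0.81 in opi10- and -0.24 in opi10+ cells, and on the deposited scale and with median centring it was -1.72 and -0.81 and called (adjusted p = 0.00162 and 0.0445). The SE of gnr1 was the widest of the 10 genes, and its calls did not hold when some single arrays were left out. Responses in opi10- and opi10+ cells were -0.82 and -1.71 at 1 h, and -0.88 and -1.99 at 3 h. Without the opi10+ or the opi10- array at 1 h, the 1 h change was -0.91 or -1.61, each with an SE of 0.49. The 1 h call was lost without any 1 of the 4 arrays of 1 h and before heat (adjusted p of 0.0579 to 0.202). The 3 h call was lost without either array before heat or the opi10+ array at 3 h (adjusted p of 0.0654 to 0.144).

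The ste6 gene (SPCC1442.01) encodes the exchange factor that loads Ras1 with GTP in the mating response. Its signals were 137, 275, 91.2 and 82.4 in opi10- cells and 107, 207, 91.9 and 66.2 in opi10+ cells, with both 43C arrays above the other 6. Signal rose by 0.89 ± 0.11 at 43C against before heat (adjusted p = 4.5e-04) and fell by 1.24 ± 0.11 between 43C and 1 h (adjusted p = 1.9e-04). These 2 changes were -0.24 and 0.10 on the deposited scale and not called, beside the drop of the array median at 43C. Set against the deposited median of all genes, the ste6 change at 43C was 0.68, and it was 0.67 with median centring (adjusted p = 0.00172). The fall of 0.61 ± 0.11 at 3 h against before heat (adjusted p = 0.00767) was likewise not called on the deposited scale (-0.19, adjusted p = 0.305) or with median centring (-0.34, adjusted p = 0.0649). The fall of 0.35 ± 0.11 at 1 h (adjusted p = 0.0369) was lost under 9 of the 16 alternatives, with adjusted p up to 0.444, among them the omission of the opi10+ array before heat or at 3 h or of the opi10- array before heat, at 1 h or at 3 h.

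Of the 3 kinases of the chain, byr1 and spk1 were called lower at 43C on every scale used, while the direction of byr2 turned with the scaling. Byr1 (SPAC1D4.13), the middle kinase, had signals of 1935, 1085, 2232 and 2671 in opi10- cells and 2043, 1012, 2267 and 2738 in opi10+ cells. Both 43C arrays were the lowest of the 8 and both 3 h arrays the highest. Signal fell by 0.91 ± 0.08 at 43C (adjusted p = 1.2e-04; deposited scale, -1.75), rose by 1.09 ± 0.08 between 43C and 1 h (adjusted p = 1.1e-04), and was 0.44 ± 0.08 above its level before heat at 3 h (adjusted p = 0.00832). Without the opi10- array taken before heat the 3 h call was lost (adjusted p = 0.0527). The rise of 0.26 ± 0.08 between 1 h and 3 h (adjusted p = 0.0389) was lost without any 1 of the 4 arrays it compares (adjusted p of 0.126 to 0.172).

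Spk1 (SPAC31G5.09C), the mitogen-activated protein kinase at the end of the chain, also fell at 43C and was highest at 3 h. Its signals were 547, 274, 640 and 1479 in opi10- cells and 529, 289, 639 and 1406 in opi10+ cells. In each condition the strains were close together, and the 3 h arrays were the highest of the 8. Signal fell by 0.89 ± 0.08 at 43C (adjusted p = 1.2e-04; deposited scale, -2.19) and rose by 1.15 ± 0.08 between 1 h and 3 h (adjusted p = 8.5e-04). At 3 h it was 1.40 ± 0.08 above before heat (adjusted p = 0.00108), with a range of 1.28 to 1.46 over the alternatives, under all of which these calls held. The rise of 0.24 ± 0.08 at 1 h against before heat (adjusted p = 0.0412) was lost without any 1 of the 8 arrays (adjusted p of 0.0544 to 0.174).

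Byr2 (SPBC1D7.05) is the first kinase of the chain. Its signals were 243, 374, 185 and 313 in opi10- cells and 305, 361, 237 and 301 in opi10+ cells, highest at 43C and lowest at 1 h in each strain. Signal rose by 0.41 ± 0.13 at 43C against before heat (adjusted p = 0.0250), fell by 0.77 ± 0.13 between 43C and 1 h (adjusted p = 0.00220) and rose by 0.52 ± 0.13 between 1 h and 3 h (adjusted p = 0.0175). The first 2 changes turned round on the deposited scale, to -0.86 at 43C and 0.57 between 43C and 1 h, and both were called there. With median centring the change at 43C was 0.05 (adjusted p = 0.764), and leaving out either the unheated opi10- array (adjusted p = 0.139) or the opi10- array at 43C (adjusted p = 0.171) also ended the call. The rise between 1 h and 3 h was lost without the opi10- array at 1 h (adjusted p = 0.139) or at 3 h (adjusted p = 0.128).

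Ste11 (SPBC32C12.02), the transcription factor of the mating programme, was higher at 43C and at both recovery points than before heat. Its signals were 1922, 3576, 3485 and 4600 in opi10- cells and 2318, 4520, 4343 and 5093 in opi10+ cells. Each of the 6 arrays after the shift to 43C was above both arrays before heat. Against before heat, signal rose by 0.92 ± 0.09 at 43C (adjusted p = 1.2e-04), by 0.88 ± 0.09 at 1 h (adjusted p = 7.0e-04) and by 1.19 ± 0.09 at 3 h (adjusted p = 0.00147). All of these calls held under the 16 alternatives, and the rise at 43C ranged from 0.31 on the deposited scale to 1.22 with median centring. Between 43C and 1 h the change was -0.05 ± 0.09 (adjusted p = 0.645). That change was called in opposite directions under other scalings, at 0.52 on the deposited scale (adjusted p = 0.00208) and at -0.45 with median centring (adjusted p = 0.00917). The further rise of 0.31 ± 0.09 between 1 h and 3 h (adjusted p = 0.0234) was lost with median centring (adjusted p = 0.159) and without either 1 h array or the opi10- array at 3 h (adjusted p of 0.103 to 0.167).

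**Figure D1:**
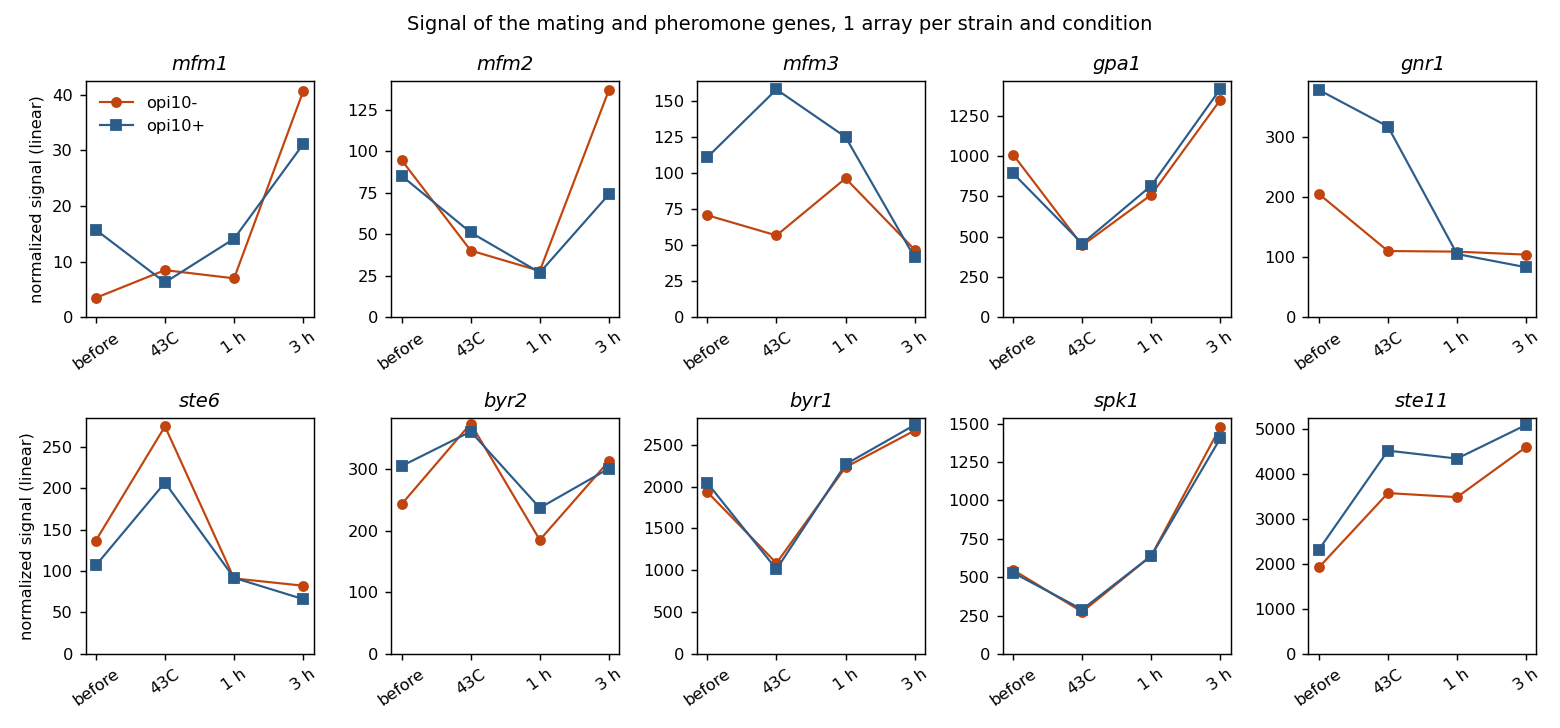
Normalized signal (linear axis from 0, 1 panel per gene) in the 4 conditions, with 1 point per array and 1 line per strain. The spk1 arrays at 3 h lie at 1479 in opi10- and 1406 in opi10+ cells, while gnr1 at 43C lies at 110 in opi10- and 317 in opi10+ cells.

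At 43C against before heat, 3 of the 10 genes were called higher (ste11, byr2 and ste6) and 4 lower (spk1, mfm2, gpa1 and byr1). Of all 2892 genes tested, 32.8% were called higher and 39.8% lower in this comparison, so calls in both directions were common. The deposited scale gave 1 of the 10 higher and 7 lower, beside 323 and 2132 of all genes. The median change of the 10 genes was -0.31 and that of all genes -0.07. The counts of members called were 5 to 8 when each array was left out in turn.

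At 1 h of recovery against before heat, ste11 and spk1 were called higher, and gnr1, mfm2 and ste6 lower. The background was 25.6% of genes called higher and 27.3% lower. The median of the 10 genes was -0.09, against -0.00 for all genes. Leaving out 1 array gave 2 to 4 members called. Only 2 members were called without the opi10- array before heat or that at 1 h, and 3 without the opi10+ array before heat, at 1 h or at 3 h, or the opi10- array at 3 h. Of all genes, 741 were called higher and 789 lower with all arrays, and 398 and 451 without the opi10- array at 1 h, where the calls fell most.

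At 3 h of recovery against before heat, 5 genes were called higher (ste11, spk1, mfm1, gpa1 and byr1) and 2 lower (gnr1 and ste6). The background was 19.7% of genes higher and 22.2% lower. The split was 6 higher and 1 lower on the deposited scale, beside 776 and 330 of all genes. The median of the 10 genes was 0.30 and that of all genes -0.03. Without the opi10- array before heat, 4 members were called in all, beside 289 genes higher and 289 lower, against 569 and 643 with all arrays.

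Between 43C and 1 h of recovery, spk1, gpa1 and byr1 were called higher at 1 h, and byr2 and ste6 lower, at a background of 35.1% higher and 30.3% lower. This comparison depended on the scaling. Deposited values gave 6 members higher and 0 lower, beside 2272 and 211 of all genes, and with median centring 3 were called higher and 5 lower, beside 985 and 1138. Spk1, gpa1 and byr1 were called higher at 1 h under all 3 scalings.

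Between 1 h and 3 h of recovery, 7 of the 10 genes were called higher at 3 h (ste11, spk1, mfm1, mfm2, gpa1, byr1 and byr2) and mfm3 was called lower. Of all genes, 23.4% were called higher and 23.5% lower. The deposited scale gave the same counts of 7 higher and 1 lower, beside 790 and 395 of all genes. The median of the 10 genes was 0.42, against -0.01 for all genes, and all 10 moved in the same direction in both strains, as did 86.0% of all genes. The number of members called was 3 without the opi10- array at 1 h, and 4 without the opi10+ array at 1 h or the opi10- array at 3 h. Calls over all genes also fell there, to 367 higher and 358 lower, 294 and 307, and 334 and 351 in that order, against 677 and 681 with all arrays. The calls of spk1, mfm2 and gpa1 held under all 16 alternatives.

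**Figure D2:**
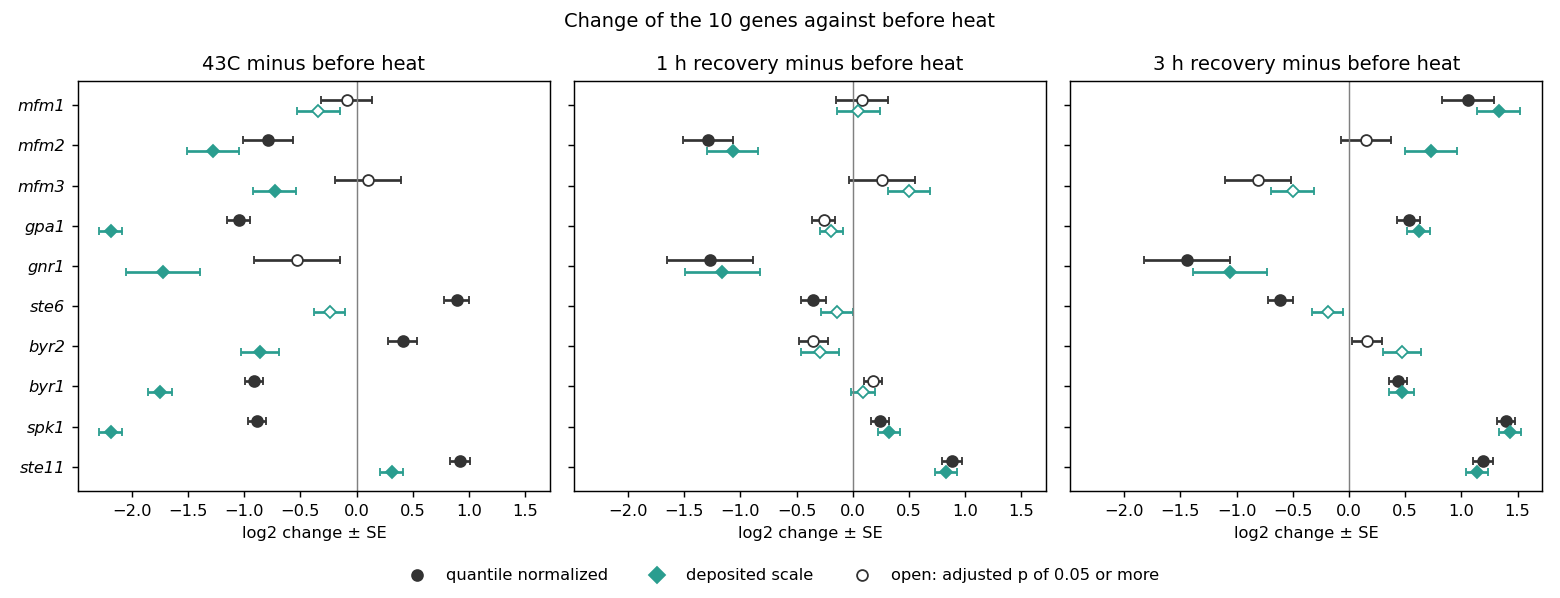
Log2 change against before heat with its SE (2 arrays against 2) for the 10 genes in the 3 later conditions, as normalized values and on the deposited scale. At 43C ste6 lies at 0.89 after normalization and at -0.24 on the deposited scale, while spk1, gpa1 and byr1 lie below 0 on both.

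Other genes of the mating pathway were counted in 5 lists, of which 59 genes were measured. Their counts stand beside shares of all genes called higher of 32.8%, 25.6% and 19.7% at 43C, 1 h and 3 h against before heat, and called lower of 39.8%, 27.3% and 22.2%, with medians of all genes of -0.07, -0.00 and -0.03. On the deposited scale, 323, 718 and 776 of the 2892 genes were called higher in those comparisons, and 2132, 672 and 330 lower. For pheromone making and export, 9 of 11 listed genes were measured. At 43C 6 of them were called lower and 2 higher (deposited scale, 7 and 0), with a median of -0.73 (medians at 1 h and 3 h, -0.03 and 0.19). Those that fell included sxa2 (-1.18 ± 0.09), the protease that degrades P-factor, mam4 (-1.10 ± 0.10), the methyltransferase that matures M-factor, and cwp1, a prenyltransferase subunit, which fell by 1.00 ± 0.10. Deposited values gave these 3 changes as -2.28, -2.37 and -2.12. The map2 gene, which encodes the P-factor precursor, was higher by 1.39 ± 0.27 at 43C, a change of 0.45 on the deposited scale that was not called (adjusted p = 0.118). At 1 h 1 gene was called higher and 3 lower. These were map2 (1.33 ± 0.27), cwp1 (-0.80 ± 0.10), ste7 (-0.60 ± 0.12), an arrestin-family gene, and cpp1 (-0.40 ± 0.08), a farnesyltransferase subunit. At 3 h mam1, the M-factor exporter, rose by 0.64 ± 0.11 (adjusted p = 0.00695) and map2 by 0.88 ± 0.27, while cwp1 fell by 0.34 ± 0.10, and the other 6 were not called. Deposited values gave 4 genes higher and 0 lower at 3 h. The map2 call at 3 h was lost without 3 single arrays, namely either array before heat or the opi10- array at 3 h (adjusted p of 0.0789 to 0.265), and at 1 h without the opi10+ array at 1 h (adjusted p = 0.0646). The 1 h calls of ste7 and cpp1 were each lost without 1 array, that of opi10- at 1 h for ste7 (adjusted p = 0.0715) and that of opi10+ at 1 h for cpp1 (adjusted p = 0.0644). The cwp1 call at 3 h was lost on the deposited scale and without any 1 of the 6 arrays not taken at 43C.

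All 10 genes of the list of receptors, G protein regulators and the Ras module were measured. On the deposited scale all 10 were called lower at 43C, as were 2132 of all 2892 genes. The normalized medians were -0.29, -0.00 and 0.15 in the 3 conditions. After normalization 4 were called lower and 0 higher at 43C. The 4 were cdc42 (-1.56 ± 0.08), the polarity GTPase, ste4 (-1.02 ± 0.10), the adaptor of Byr2, mam2 (-0.79 ± 0.09), the P-factor receptor, and ras1 (-0.76 ± 0.08). Deposited changes of the first 3 were -2.46, -2.28 and -1.36, and ras1 fell by 1.70 on that scale. At 1 h scd2, a polarity scaffold, was called higher (0.51 ± 0.12), and cdc42 (-0.54 ± 0.08), rgs1 (-0.53 ± 0.17), which turns the G protein off, and ras1 (-0.35 ± 0.08) lower. Of these 4, the calls of rgs1, scd2 and ras1 were lost without either 1 h array, and those of rgs1 and ras1 also without the opi10- array before heat. At 3 h ste4 (1.09 ± 0.10), mam2 (0.51 ± 0.09) and gap1 (0.33 ± 0.08), the GTPase activator of Ras1, rose, and ras1 was lower by 0.25 ± 0.08. That ras1 call was lost without any 1 of the 8 arrays and on both other scales, and that of gap1 without either array before heat or the opi10- array at 3 h. Signals of ste4 were 722, 318, 742 and 1394 in opi10- cells and 629, 331, 759 and 1521 in opi10+ cells, a course like that of spk1.

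For mating type, adhesion and fusion, 10 of 15 listed genes were measured, with the mating-type genes mat1-Mc, mat1-Mi, mat1-Pc and mat1-Pm among those not analysed here. At 43C 2 were called higher and 4 lower (deposited scale, 2 and 8), and the medians were -0.26, 0.10 and 0.05 in the 3 conditions. The formin gene fus1, needed for cell fusion, had signals of 161, 1104, 210 and 245 in opi10- cells and 204, 1637, 247 and 296 in opi10+ cells. Both 43C arrays were above all others, and fus1 rose by 2.78 ± 0.10 at 43C (adjusted p = 1.1e-05), or by 2.07 on the deposited scale. The MADS-box gene map1, a partner in P-specific transcription, rose by 1.61 ± 0.12 at 43C, and agn2 (-1.11 ± 0.11), a glucanase of the spore sac, and myo51 (-0.79 ± 0.08), a class V myosin, fell. The deposited changes of these 3 were 0.56, -2.38 and -1.84. At 1 h 2 genes were called higher and 3 lower. Among these, agn2 (-0.84 ± 0.11) and mam3 (-0.81 ± 0.10), an adhesin of M cells, kept their calls in every alternative. The calls of cfr1 (-0.49 ± 0.14) and dni1 (0.43 ± 0.13) were lost without either 1 h array or the opi10+ array before heat, and that of cfr1 also without the opi10- array before heat and on the deposited scale. At 3 h 4 were called higher and 2 lower, with the fusion genes prm1 (0.90 ± 0.12) and dni2 (0.88 ± 0.11) and map1 (0.86 ± 0.12) higher. The call of map4 (-0.59 ± 0.19), an adhesin of P cells, was lost on both other scales and when any 1 of 5 arrays was left out, both of before heat, both of 1 h and the opi10+ array at 3 h. At 43C 2 genes were called lower without the opi10- array at 43C.

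The list of nutrient and stress control of ste11 had 24 of 25 genes measured and at 43C had 16 genes called higher and 4 lower, with a median of 0.90. On the deposited scale 10 were higher and 9 lower, with a median of 0.25 against -0.91 for all genes. The glucose receptor gene git3 rose by 2.93 ± 0.17, its G beta partner git5 by 1.79 ± 0.18, and the 2 subunits of the cyclic AMP-dependent kinase, cgs1 and pka1, by 2.62 ± 0.12 and 1.75 ± 0.16. In the order named, the deposited changes were 2.26, 0.92, 1.93 and 1.08. Cgs1 is the inhibitory subunit and Pka1 the catalytic one, so the group that rose held both an inhibitor and an activator of the same pathway. Signals of cgs1 were 420, 2899, 847 and 1298 in opi10- cells and 582, 3348, 853 and 1434 in opi10+ cells. The medians at 1 h and 3 h were 0.38 and 0.35. At 1 h 13 genes were called higher and 2 lower, led by prr1 (0.89 ± 0.09), a response regulator that acts on ste11, atf1 (0.81 ± 0.17) and pcr1 (0.79 ± 0.20), the stress-activated bZIP pair, and cgs1 (0.76 ± 0.12). The atf1 call was lost without the opi10- array at 1 h (adjusted p = 0.0809) and that of pcr1 without it or the opi10- array before heat, and the number called higher was 6 and 7 without the opi10+ and the opi10- array of 1 h, and 8 without the opi10- array before heat. At 3 h 13 were higher and 2 lower, with cgs1 (1.44 ± 0.12), git3 (1.16 ± 0.17) and pka1 (1.15 ± 0.16) higher and nrd1 (-1.22 ± 0.17), an RNA-binding repressor of Ste11 targets, lower. The number higher at 3 h was 5 without the opi10- array at 3 h and 6 without the opi10- array before heat.

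All 6 listed genes of entry into meiosis were measured, with medians of 0.30, 0.21 and -0.05 in the 3 conditions. At 43C 2 were called higher and 2 lower (deposited scale, 1 and 4). The mei2 gene, whose RNA-binding product starts meiosis, had signals of 1399, 185, 960 and 3380 in opi10- cells and 967, 312, 977 and 3251 in opi10+ cells. It fell by 2.20 ± 0.26 at 43C (adjusted p = 3.2e-04) and rose by 1.50 ± 0.26 at 3 h against before heat (adjusted p = 0.00637), as the 1 gene of the list called at 3 h. Deposited values called 3 higher at 3 h, mei2, mei3 (0.54, adjusted p = 0.0267) and pat1 (0.59, adjusted p = 0.0256). At 43C rep1 (-0.53 ± 0.17), a transcription factor, was also lower. Higher there were mei3 (1.36 ± 0.16), the inhibitor of the kinase Pat1, and rec8 (1.32 ± 0.23), the meiotic cohesin. The deposited change of mei3 was 0.60 and called. However, mei3 was dim, with a deposited signal of 13.9 in unheated opi10- cells, below the background of 15.3 on that array. Leaving out either array before heat or the opi10+ array at 43C ended the rep1 call, and the deposited change of rec8 was 0.39 and not called. At 1 h pat1 (0.77 ± 0.17), rep1 (0.49 ± 0.17) and mei3 (0.49 ± 0.16) were called higher, and each of these calls was lost without either 1 h array (adjusted p of 0.0555 to 0.312). That of mei3 was also lost without the opi10- array before heat, and that of rep1 without any 1 of the 4 arrays of before heat and 3 h.

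**Figure D3:**
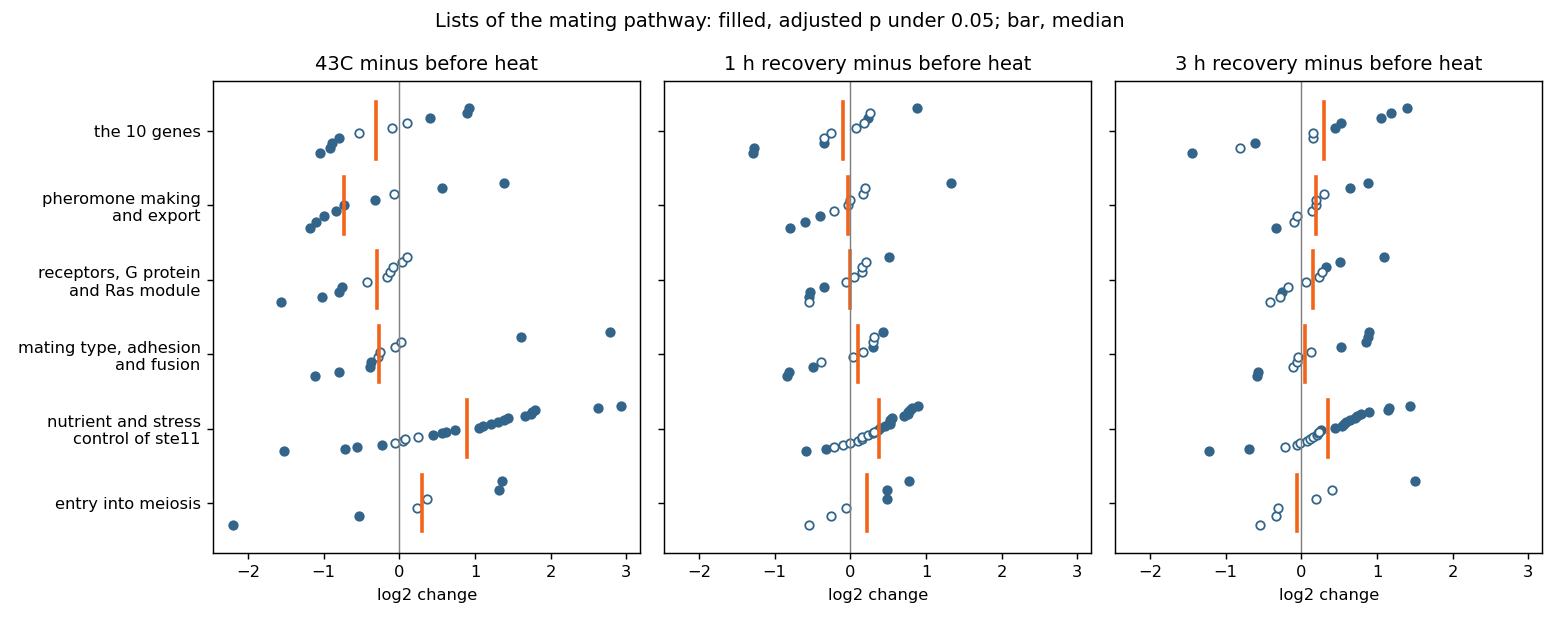
Log2 change against before heat (normalized values) of each measured gene in the 10 mating genes and the 5 pathway lists at 43C, 1 h and 3 h, with 1 point per gene, filled where the adjusted p was under 0.05, and a bar at the median. The list of nutrient and stress control of ste11 has its median at 0.90 at 43C, against -0.31 for the 10 mating genes.

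Transcripts of both mating types were above background, as nearly all S. pombe genes were by mean signal, while the labels name no mating type. Of 9 listed M-cell markers, 7 were measured, 3 of them the mfm genes. Over the 4 conditions their summed signals were 1656, 1166, 1456 and 2002 in opi10- cells and 1851, 1334, 1493 and 1942 in opi10+ cells. On the deposited scale the M-cell sums were 1785, 611, 1832 and 2642 in opi10- cells and 2181, 640, 1818 and 2685 in opi10+ cells. On every array 6 of the 7 were above background, and on both 3 h arrays all 7. Of these markers 5 were called lower at 43C, 2 lower at 1 h, and 3 higher and 1 lower at 3 h (deposited scale, 6 lower, 1 higher and 2 lower, and 5 higher and 1 lower). For these and the other marker counts, the shares of all genes called higher were 32.8%, 25.6% and 19.7% at 43C, 1 h and 3 h. Those called lower were 39.8%, 27.3% and 22.2%. At 3 h mam1 and mam2 were higher with mfm1, and mam3 was lower (-0.57 ± 0.10). At 43C mam1 (-0.32 ± 0.11; deposited, -1.46) and mam3 (-0.39 ± 0.10; deposited, -1.56) were lower with sxa2, mam2 and mfm2, and the mam1 call was lost when any 1 of 7 arrays was left out, all but the opi10- array before heat, and that of mam3 without the opi10- array before heat or at 43C. Without the opi10- array at 43C, 2 M-cell markers were called lower at 43C, and 3 without either array before heat. Of 5 listed P-cell markers 3 were measured, map2, map3 and map4, all above background on every array. Their summed signals were 583, 484, 480 and 509 in opi10- cells and 540, 704, 542 and 395 in opi10+ cells. The P-cell sums depended on the scaling. Deposited values gave 637, 236, 609 and 759 in opi10- cells and 655, 294, 664 and 630 in opi10+ cells. The map3 gene, the M-factor receptor, had changes of -0.12 ± 0.20, -0.54 ± 0.20 and -0.41 ± 0.20 at the 3 conditions, with none called. On the deposited scale it was called lower at 43C (-1.28, adjusted p = 5.8e-05) and at 1 h (-0.40, adjusted p = 0.0442), and at 1 h also with median centring (adjusted p = 0.0435) and without the opi10+ array before heat or either array at 43C (adjusted p of 0.0189 to 0.0235). At 3 h map3 was called lower when the unheated opi10+ array was left out (adjusted p = 0.0455). The map4 changes at 43C and 1 h were -0.28 ± 0.19 and -0.38 ± 0.19, not called. At 43C map4 was called lower on the deposited scale (-1.58, adjusted p = 2.4e-05), with median centring (-0.67, adjusted p = 0.00318) and when the opi10+ array of 43C was left out (-0.59, adjusted p = 0.0182), and at 1 h without either 43C array (adjusted p = 0.0429 and 0.0392). The summed signals of 8 markers of zygotes, meiotic cells and spores were 686, 2587, 955 and 688 in opi10- cells and 702, 2208, 1041 and 682 in opi10+ cells. These normalized sums were highest at 43C, where isp3 alone made up 1574 in opi10- and 1033 in opi10+ cells. The deposited sums were 647, 1578, 1207 and 978 in opi10- cells and 782, 1158, 1281 and 1068 in opi10+ cells, with the highest of opi10+ cells at 1 h. At 43C 5 of the 8 were called higher and 2 lower, and at 1 h and 3 h 4 and 1 were called higher and 0 lower. The deposited scale gave 5 and 4 higher at 1 h and 3 h, and median centring 5 and 3. The 4 at 1 h became 2 without either 1 h array or the opi10- array before heat. The part of the mating-type makeup of the cultures and of meiotic cells in the changes of the mating genes was not tested.

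The genes with the most similar profiles over the 8 arrays were found by Pearson's r of normalized log2 values. The arrays share the heat course, so high values were common, and they are given as a description. Closest to spk1 were ste4 (r = 0.99), sec11 (0.99) and dak2 (0.98), and closest to gpa1 were mei2 (0.99), sld5 (0.98) and fnx2 (0.97). Byr1 was closest to vrs1, rbx1 and klf1 (0.99 each). Byr2 was closest to atg1 (0.96), adl1 (0.95) and tpi1 (0.94). Ste6 was closest to hif2 (0.98), phf1 (0.98) and nrm1 (0.97). Ste11 was closest to wtf9 (0.98), cid16 (0.98) and dpm2 (0.95). The pheromone genes had different neighbours. For mfm1 they were egt1 (0.97), are2 (0.96) and atg1802 (0.96). The mfm1 probe set was above background only on the 2 arrays of 3 h, which limits what its r values describe. Those of mfm2 were bsu1 (0.99), dga1 (0.98) and cdc4 (0.97), and those of mfm3 rec10 (0.93), but2 (0.87) and pof3 (0.87). Closest to gnr1 were map4 (0.91), mde3 (0.86) and pan1 (0.86). Among the 10 genes themselves, spk1, gpa1 and byr1 had r of 0.91 to 0.94 with each other, and ste6 had -0.90, -0.88 and -0.96 with them.

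Averaged over the 4 conditions, none of the 10 genes was called different between opi10- and opi10+ cells. The background was 0% of the 2892 genes called by limma, with a smallest adjusted p of 0.296 and 317 genes at an unadjusted p under 0.05. The strain difference of ste11 was -0.27 ± 0.06 (adjusted p = 0.339), with lower signal in opi10- cells in 4 of 4 conditions. Those of mfm3 and gnr1 were -0.50 ± 0.20 (adjusted p = 0.442) and -0.48 ± 0.27 (adjusted p = 0.562), and that of ste6 was 0.24 ± 0.08 (adjusted p = 0.400). Spk1, gpa1 and byr1 differed by at most 0.17 in size between strains within each condition. The spread of 3 residual degrees of freedom limits what this comparison can show.

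Within 1 condition there is 1 array against 1, so differences between the strains have no replicate check and are given as values. At 43C gnr1 had a signal of 110 in opi10- and 317 in opi10+ cells (-1.40), the largest difference by size of the 2892 genes in that condition. The difference was smaller before heat, 205 in opi10- and 378 in opi10+ cells (-0.83), and close to 0 at 1 h, 109 and 105 (0.05). The mfm3 signal at 43C was 56.7 in opi10- and 158 in opi10+ cells (-1.26). These were the 2 members at least 2-fold apart at 43C, where 0.380% of all genes were. The second mfm3 probe set was not 2-fold apart there, with 59.9 in opi10- and 109 in opi10+ cells. No member was 2-fold apart before heat (0.657% of all genes), at 1 h (0.138%) or at 3 h (0.553%). On the deposited scale, the differences at 43C were -1.10 for gnr1 and -0.81 for mfm3, and gnr1 before heat was -1.06. Of the other 8 genes, the largest difference was that of mfm2 at 3 h, with 137 in opi10- and 74.1 in opi10+ cells (0.77).

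The direction of the heat response was the same in both strains for 8 of the 10 genes at 43C, 9 at 1 h and 8 at 3 h against before heat, and for 8 between 43C and 1 h. Of all genes, 91.4%, 83.1%, 81.1% and 90.3% had the same direction in those comparisons. The gnr1 signal at 1 h against 43C differed by -0.01 in opi10- and by -1.46 in opi10+ cells, without a test. This contrast depended on the scaling. Deposited gnr1 signals at 43C and 1 h were 53.5 and 136 in opi10- cells, and 132 and 131 in opi10+ cells.

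**Figure D4:**
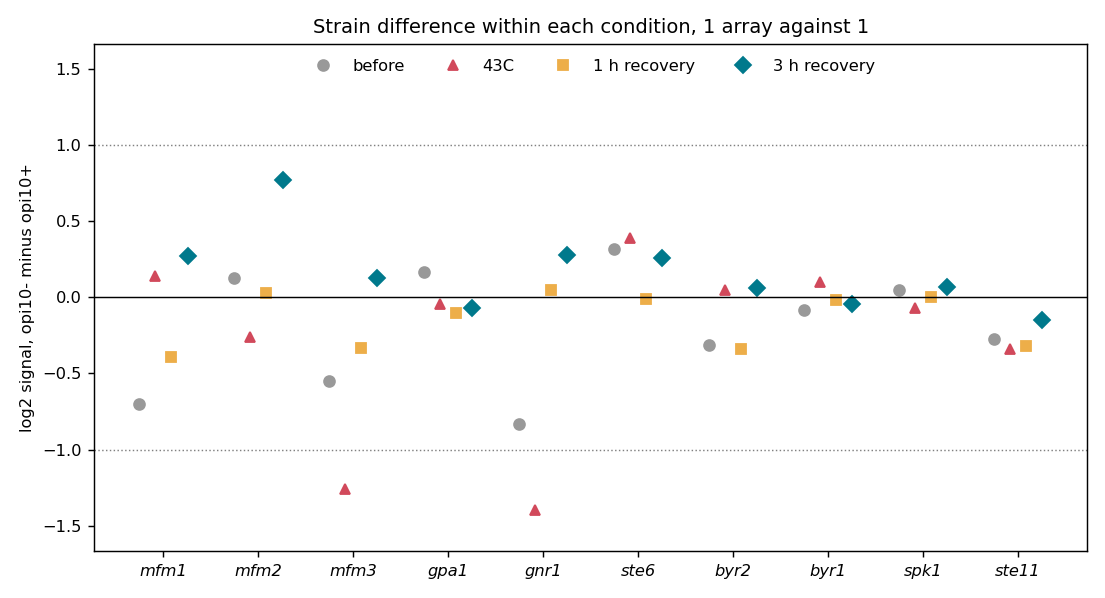
Difference of log2(signal + 16) between opi10- and opi10+ cells for each of the 10 genes in each condition (1 array against 1, so no error bar), with lines at 2-fold. Only gnr1 (-1.40) and mfm3 (-1.26) at 43C pass the 2-fold line on these normalized values.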

How the data were processed

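RNA of 8 samples (1 per strain and condition) was extracted with phenol and chloroform and labelled with a 3' in vitro transcription kit, per the labels' protocols. The authors deposited linear intensity values for 10928 probe sets. How probes were summarised, and whether arrays were scaled, is not stated in the sources used here. Genes came from the platform annotation, updated through a RefSeq gene table. The 20 probe sets with several genes and the 3 unplaced ones were left out. Values were transformed as log2(value + 16) and quantile-normalized over 2914 S. pombe probe sets. Genes were tested when their mean signal exceeded 6.04 (percentile 75 of the S. cerevisiae probe sets), which kept all 10 mating genes. Of several probe sets of 1 gene, the brightest was used. An additive model of strain and condition (3 residual degrees of freedom) was fitted in limma 3.58.1 (R 4.3.3), so replicates are the 2 strains, and tested on simulated data. The members and lists were chosen with earlier results of these data known. Named pathway genes are the 4 largest called changes per list and contrast and all M and P markers, and 3 neighbours are named per gene. The 16 alternatives were the deposited scale, median centring, pseudocounts of 1 and 64, testing every gene, filtering at percentile 95, the mean of all probe sets, an intensity trend with robust moderation, and each array left out. The number of arrays limits the precision.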

Additional observations from a re-analysis of the deposited data

Results flagged for a closer look

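Some responses went in opposite directions in the 2 strains. With 1 array per strain and condition, these differences were not tested, and each is given as the log2 response of opi10- less that of opi10+ cells. For mfm1 they were 0.84 at 43C against before heat, 0.31 at 1 h against before heat and -0.53 between 43C and 1 h. On none of the arrays compared was mfm1 above background. For mfm3 they were -0.71 at 43C against before heat (-0.25 in opi10- and 0.45 in opi10+ cells) and 0.93 between 43C and 1 h (0.63 in opi10- and -0.30 in opi10+ cells). The second mfm3 probe set had the same direction in both strains at 43C, from 52.4 to 59.9 in opi10- and from 96.3 to 109 in opi10+ cells. For mfm2 the response at 3 h against before heat differed by 0.64, with 0.47 in opi10- and -0.17 in opi10+ cells. For byr2 the same comparison differed by 0.37, with 0.35 in opi10- and -0.02 in opi10+ cells.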

How the results depend on the processing

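Strain was a term of the fit, so conditions were compared within strain, and with 1 array per strain and condition there were no further replicates to pair. Of 60 results on the 10 genes, 32 were called, and 15 of these calls held under all 16 alternatives. Of the 28 not called, 11 were called under some alternative. The turns of direction listed next are those of changes called before or after the change of scaling. On the deposited scale, directions turned for ste11 between 43C and 1 h (0.52), mfm3 at 43C (-0.73), byr2 at 43C (-0.86) and between 43C and 1 h (0.57), and ste6 at 43C (-0.24) and between 43C and 1 h (0.10). Uncalled changes that turned there included gnr1 and mfm2 between 43C and 1 h (0.56 and 0.21) and gnr1 between 1 h and 3 h (0.10). Median centring turned mfm1 at 43C (0.57) and between 43C and 1 h (-0.58). The deposited scale and median centring differ from the normalized values by how each array is scaled, and the cause of each turn was not tested further. Between 43C and 1 h, 5 members were called, and 8 with median centring. Leaving out each array in turn gave 5 to 8 members called at 43C (7 with all arrays), 2 to 4 at 1 h (5), 4 to 8 at 3 h (7), 5 to 7 between 43C and 1 h (5), and 3 to 8 between 1 h and 3 h (8). The strain term called 0 of the 10 genes under every alternative, and 1 of all genes without either array before heat. Of members 2-fold apart between strains there was 1 before heat on the deposited scale and with a pseudocount of 1, against 0. At 43C there was 1 on the deposited scale, with median centring, with a pseudocount of 64 and with the mean of all probe sets, against 2.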

Other observations

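The markers of zygotes, meiotic cells and spores did not move as 1 group at 43C against before heat. Those called higher were isp3 (3.25 ± 0.19), an outer spore wall protein, dmc1 (1.92 ± 0.10), a meiotic recombinase, mek1 (1.67 ± 0.08), a meiotic kinase, mei3 (1.36 ± 0.16) and spo6 (1.30 ± 0.16), a regulator of the meiotic divisions. The same 5 were called higher on the deposited scale, though mei3 was below background in unheated opi10- cells. Those called lower were rec12 (-1.07 ± 0.14), which makes meiotic DNA breaks, and spo5 (-0.80 ± 0.14), a meiotic RNA-binding protein. The isp3 signals were 114, 1574, 296 and 96.3 in opi10- cells and 126, 1033, 302 and 108 in opi10+ cells before heat, at 43C, at 1 h and at 3 h. Both 43C arrays were above the other 6, on the deposited scale too. The single genes of this list were named after their values were seen.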
